A study of Mus musculus with 2 samples.

Results

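The Hox cluster genes are the 39 mouse genes named Hoxa, Hoxb, Hoxc or Hoxd plus a number, and they were examined here in the fetal mandible. They were found by symbol in the array's annotation. A probe set of its own, meaning one annotated to that gene alone, was present for 37 of the 39, out of 19938 genes with such a probe set on the array. Hoxb8 shared its only probe set with Hoxb7. The shared Hoxb8 and Hoxb7 probe set read 3.09 for the wild type and 3.22 for the double knockout, and was left out of the counts. Each of the 37 genes had 1 probe set of its own.

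Whole-tissue RNA from mandibles taken at E18.5, late in fetal life, was hybridised to Affymetrix expression arrays. The wild-type sample came from the BALB/c strain. The other, Myf5-/-:MyoD-/- and also labelled BALB/c, was null for Myf5 and MyoD, the transcription factors that commit cells to skeletal muscle. Each genotype has 1 array, so no comparison has a replicate check, and how many embryos were behind each array is not stated in the sources used here.

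Hox genes encode homeodomain transcription factors. They lie in 4 clusters, A to D, and genes in the same place of different clusters form 13 paralog groups. Groups with low numbers are active nearest the head and those with high numbers towards the tail, an order that follows gene order along the chromosome. The neural crest that fills the first pharyngeal arch, from which the lower jaw forms, is Hox-free, whereas crest of the second arch expresses Hoxa2. Gain of Hox expression in the first arch disturbs jaw formation.

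The tissue and the genotypes were checked first. Osteoblast markers (4 of 4 with a probe set) and tooth markers (5 of 5) lay above the floor on both arrays. The floor was the array's median over annotated probe sets, 6.18 log2 units for the wild type and 6.19 for the double knockout. Myf5 read 6.31 (wild type) and 4.95 (double knockout), and Myod1 read 7.14 and 6.49. Myf5 was thus under the floor in the double knockout, while Myod1, with a difference of -0.66, still passed it. Where these probe sets lie relative to the deleted parts was not tested. All 12 skeletal muscle markers read lower by 2-fold or more in the double knockout. Their median difference was -5.03 with values below the floor raised to it. Only Des passed the floor in the double knockout, so this median is a lower bound on the size of the difference. All 8 salivary gland markers read higher by 2-fold or more (7 with the arrays rescaled by either method). Of the other lists, 9 of 9 markers of keratinising epithelium, 7 of 7 of endothelium, 3 of 7 of cartilage, 4 and then 6 of 6 of nerve, and 4 and then 3 of 6 of blood passed the floor. Markers of thyroid and parathyroid (5 with a probe set), thymus (5), limb and trunk (5), and lung and gut (5) were all below the floor on both arrays. Of 6 markers of spinal cord and hindbrain, only Isl1, which is also a jaw gene, was above it (6.21 and 6.56). In bulk tissue, fewer cells of a type and less RNA per cell cannot be told apart.

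No Hox gene lay above the floor on either array. The count was 0 of 37 for either genotype, while 49.7 and 49.9 percent of all genes with their own probe set were above it. The 37 wild-type values ran from 2.73 to 5.92 log2 units with a median of 4.05, and the double-knockout values from 2.73 to 5.43 with a median of 4.16. Placed among all single-gene probe sets of the same array, the median Hox gene was at percentile 21.8 for the wild type and 23.5 for the double knockout. The highest was Hoxa4, at percentile 45.9 and 39.4, and the lowest Hoxa5, at 6.76 and 6.74. A reading below the floor does not show that a transcript is absent, because probe sets differ in how brightly they respond and the deposited table carries no detection calls.

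**Figure D1:**
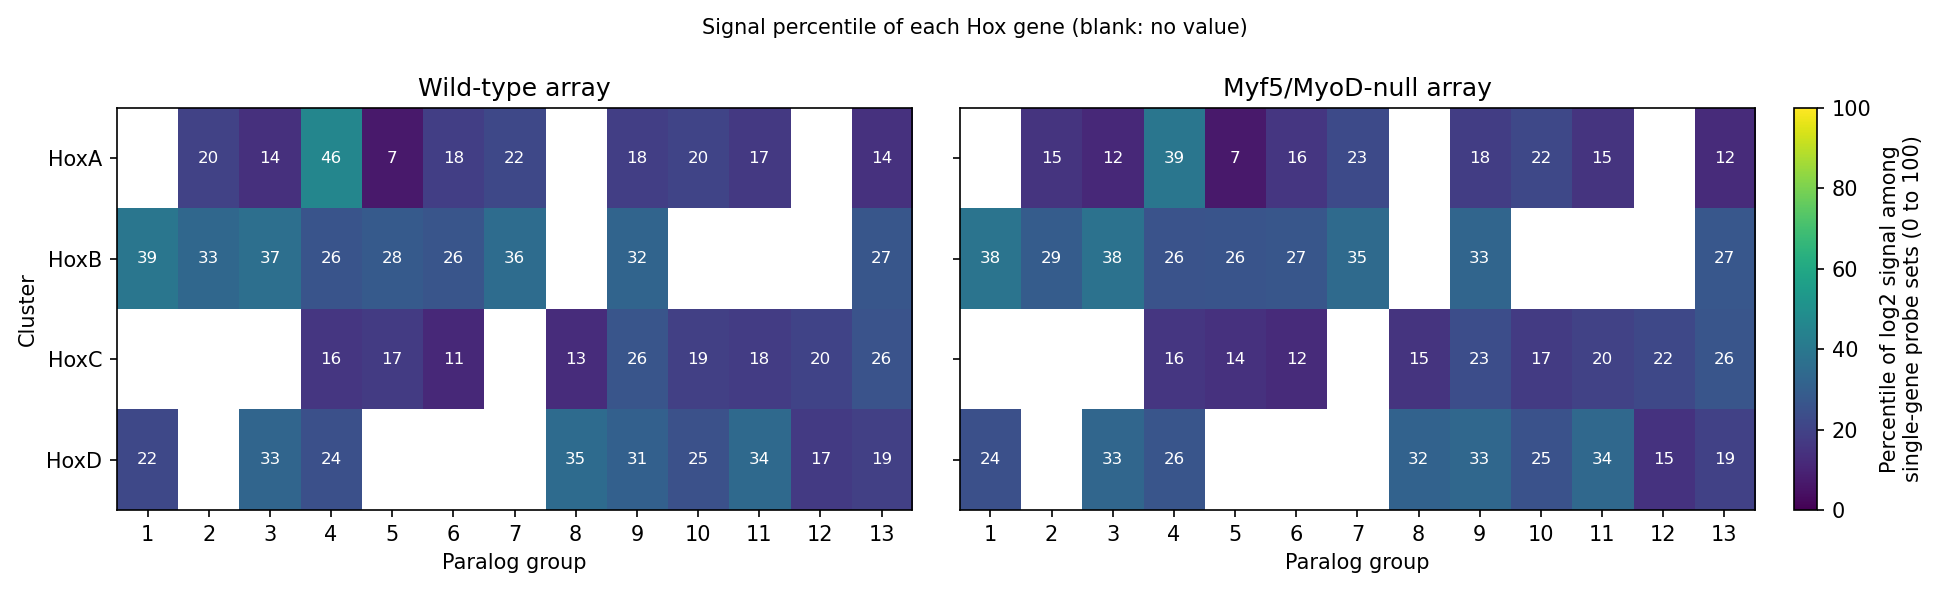
Signal percentile of each Hox gene among single-gene probe sets on the wild-type array (left) and the Myf5/MyoD-null array (right), by cluster (rows) and paralog group (columns), with blank cells where there is no value. Hoxa4 has the highest percentile on both arrays (45.9 and 39.4), and no value reaches 50.

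Genes known mainly for tissues other than the jaw gave a second yardstick. The first set was 1190 chemoreceptor genes, which encode the olfactory and vomeronasal receptors of the nose, with a wild-type median of 2.75 and a double-knockout median of 2.76. Above those medians lay 36 of the 37 Hox genes on each array, Hoxa5 being the exception. Above the 95th percentile of the chemoreceptor genes (4.35 and 4.39) lay 16 wild-type and 14 double-knockout Hox readings. The 95th percentile of chemoreceptor probe sets, which rounds to the same values, gave the same Hox counts. It was passed by 74.5 and 73.5 percent of all genes. The second set was 49 transcription factors of tissues such as brain, eye, pancreas, heart and early embryo, a list written after the Hox values were seen. Of these 49, 2 (wild type) and 3 (double knockout) passed the floor, beside 49.7 and 49.9 percent of all genes. Whether any of the 49 is made in the jaw was not tested. Their medians were 4.76 and 4.68, higher than those of the Hox genes, and their 95th percentiles (6.06 and 6.18) lay above all 37 Hox genes. The Hox genes were thus between the chemoreceptors and the transcription factors of other tissues by their medians, and the ranges of all these sets overlapped.

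**Figure D2:**
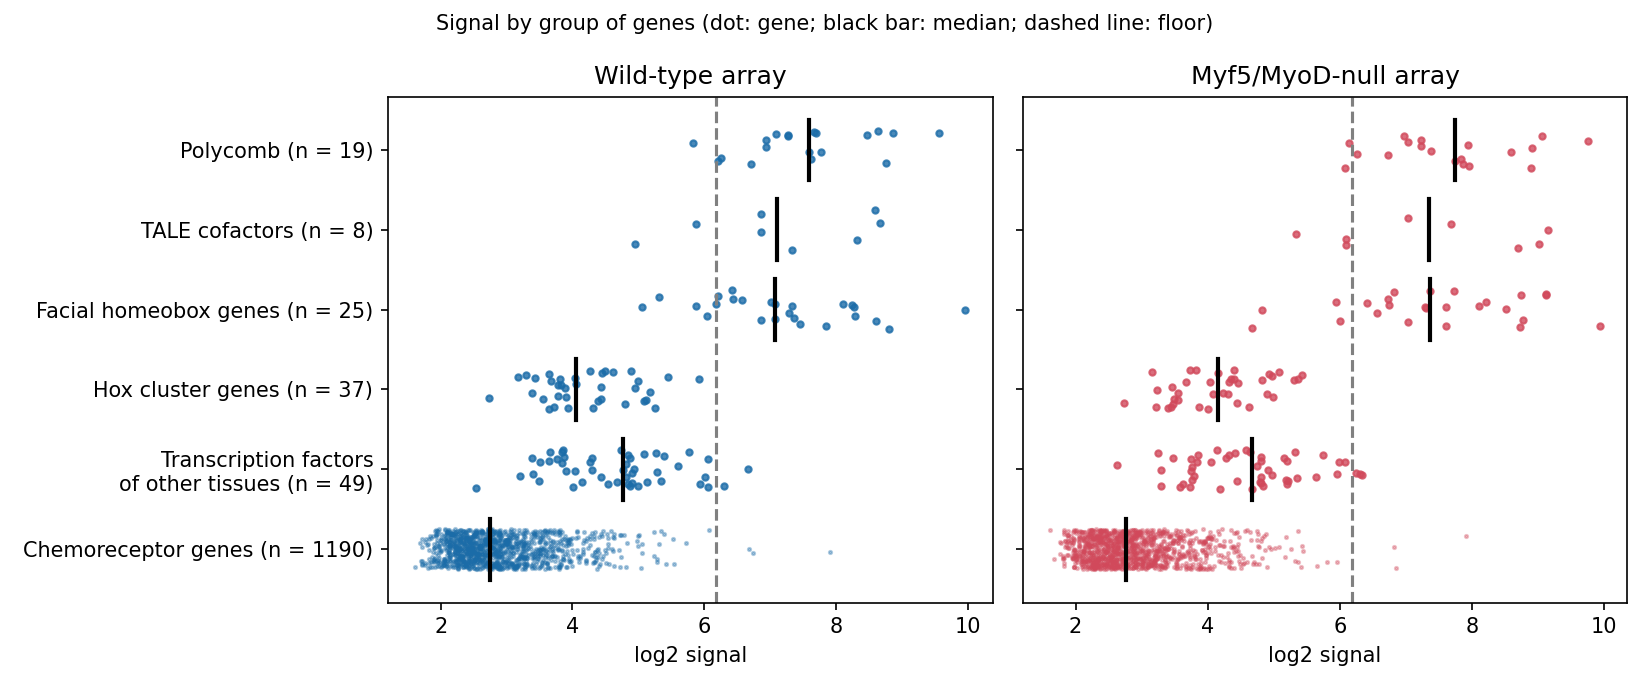
log2 signal (horizontal axis) of each gene in 6 groups on the wild-type array (left) and the Myf5/MyoD-null array (right). All 37 Hox genes lie left of the floor, whereas 21 of 25 facial homeobox genes lie right of it on each array.

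Homeobox genes that pattern the face read differently from the Hox genes on the same arrays. Of 25 with a probe set, 21 passed the floor on each array, beside 49.7 and 49.9 percent of all genes. The median signals of the 25 were 7.07 and 7.37. The mesenchymal gene Prrx1 was the brightest at 9.96 and 9.93, and Dlx5, which with Dlx6 specifies the lower jaw, read 8.80 and 9.11. Among 23 measured (above the floor on at least 1 array), 18 read higher and 5 lower in the double knockout, beside 66.9 percent higher and 32.3 percent lower of all 10393 measured genes. Their median difference was 0.31, against 0.10 over the measured genes. The mesoderm gene Meox2 was 2.99-fold lower (8.61 against 7.03), the only one of the 23 at least 2-fold apart. Among all measured genes, 2.73 percent were at least 2-fold lower and 0.51 percent at least 2-fold higher. The largest differences upward were in Alx1 (0.92), Dlx2 (0.84) and Msx1 (0.78).

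The Hox gene promoters differ in base composition. RefSeq promoter windows (build GRCm38.p6, from 250 bases before to 50 after a start site) were held for 22 of the 39 Hox genes. The Hox windows had a median of 13.5 CG dinucleotides and 56.8 percent G or C, against 7 and 52.7 over 27025 genes, 1 and 35.3 over 1012 chemoreceptor genes, and 19 and 61.2 over 40 of the transcription factors of other tissues. The 250 bases upstream of 3 start sites are printed to show how far they differ, with each CG dinucleotide in capitals. They are Hoxa2, the second-arch gene (chr6:52164832-52165081, minus strand), and the genes at either end of the D cluster, Hoxd1 (chr2:74762730-74762979, plus strand) and Hoxd13 (chr2:74667975-74668224, plus strand).
Hoxa2: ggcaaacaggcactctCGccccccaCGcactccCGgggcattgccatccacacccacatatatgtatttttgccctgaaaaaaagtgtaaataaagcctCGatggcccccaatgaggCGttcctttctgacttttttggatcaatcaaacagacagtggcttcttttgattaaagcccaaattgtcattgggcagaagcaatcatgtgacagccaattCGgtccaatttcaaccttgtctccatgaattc
Hoxd1: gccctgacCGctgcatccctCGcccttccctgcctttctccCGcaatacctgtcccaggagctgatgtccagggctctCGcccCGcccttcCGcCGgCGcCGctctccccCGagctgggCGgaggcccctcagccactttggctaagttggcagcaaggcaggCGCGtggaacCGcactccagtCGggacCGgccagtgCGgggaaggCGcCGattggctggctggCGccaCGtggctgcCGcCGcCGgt
Hoxd13: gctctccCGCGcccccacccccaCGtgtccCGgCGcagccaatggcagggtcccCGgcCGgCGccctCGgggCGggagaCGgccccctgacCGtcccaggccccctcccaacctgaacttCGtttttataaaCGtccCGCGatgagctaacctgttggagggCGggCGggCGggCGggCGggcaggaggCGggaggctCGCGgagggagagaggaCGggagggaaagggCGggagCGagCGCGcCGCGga
These stretches hold 6, 24 and 31 CG dinucleotides. The wild-type array read 3.89 for Hoxa2, 4.05 for Hoxd1 and 3.82 for Hoxd13, each from its own probe set and under the floor.

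Promoter base composition was also set beside the signal of dim genes in general. Among genes under the floor throughout, the wild-type median ran from 2.75 where the promoter window held under 40 percent G or C (1180 genes) to 3.72 at 40 to 50 percent, 4.62 at 50 to 60 percent, 5.04 at 60 to 70 percent (1234 genes) and 5.15 at 70 percent or more. Chemoreceptor genes, whose windows had a median of 35.3 percent, were not set apart from these dim genes. The wild-type median was 4.48 for the 4 Hox genes with 40 to 50 percent and 4.04 for the 7 with 50 to 60 percent. It was 3.78 for the 7 with 60 to 70 percent. The end bins held 1 Hox gene under 40 percent (4.27) and 2 at 70 percent or more (median 3.63). These bins are small and their readings come from different probe sets, so no order was read from them. The part of probe composition in these readings was not tested.

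The anterior paralog groups were described first, because groups 1 to 4 act in the hindbrain and pharyngeal arches. Hoxb1, which sets the identity of the hindbrain segment that gives rise to the facial nerve, read 5.44 (wild type) and 5.36 (double knockout). Hoxd1 read 4.05 and 4.24. Both were below the floor, and they differed in opposite directions.

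Hoxa2, the selector gene of the second arch, read 3.89 and 3.49, at percentiles 19.8 and 15.2. Hoxb2, its paralog, read 5.0 and 4.63. Group 2 had the largest median difference of any group, at -0.38 (-0.44 with the median difference of single-gene probe sets set to 0 and -0.35 after quantile normalisation), with both genes lower in the double knockout. Both differences are between readings below the floor.

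Of group 3, Hoxa3, needed for thymus and parathyroid formation, read 3.38 and 3.16. Hoxb3 read 5.26 and 5.30, and Hoxd3 4.95 and 4.93. The last pair differed between arrays by 0.05 and -0.01.

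Hoxa4 came closest to the floor, 0.26 log2 units under it for the wild type and 0.76 for the double knockout. It read 5.92 and 5.43, a difference of -0.49, the widest of the 37 and equal to 1.40-fold. Its group members did not share this, since Hoxb4 read 4.43 and 4.32, Hoxc4 read 3.55 on both arrays, and Hoxd4 read 4.27 and 4.40. Group 4 genes pattern the posterior hindbrain and neck vertebrae. On the wild-type array Hoxa4 was the only Hox gene within 0.5 log2 units of the floor, and in the double knockout none was.

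Groups 5 to 8 pattern the neck and trunk. Hoxa5, a gene of the lung and of the neck-to-trunk transition, read 2.73 on both arrays, the lowest of all members. Hoxb5 read 4.62 and 4.35, and Hoxc5 3.67 and 3.40, so that the group 5 median was -0.27. Hoxa6 read 3.78 and 3.55, Hoxb6 read 4.44 on both, and Hoxc6 3.17 and 3.22. The percentiles of these 6 reached at most 28.3 (wild type) and 26.9 (double knockout).

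Hoxa7 read 4.04 and 4.08, and Hoxb7 5.17 and 5.08. Hoxc8, which patterns limb-level motor neurons, read 3.29 and 3.47, while Hoxd8 read 5.12 and 4.82. The 10 genes of groups 5 to 8 had median readings of 3.91 and 3.82, against 4.43 and 4.40 for the 11 genes of groups 1 to 4.

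Groups 9 to 13 pattern the trunk, limbs and tail. In group 9, Hoxa9 read 3.77 and 3.73, Hoxb9 4.89 on both, Hoxc9 4.45 and 4.16, and Hoxd9 4.80 and 4.97. In group 10, which suppresses ribs in the lumbar spine, Hoxa10 read 3.93 and 4.03, Hoxc10 3.81 and 3.67, and Hoxd10 4.31 on both. The direction of the difference varied within each of these groups.

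In group 11, which acts in the forearm and kidney, Hoxa11 read 3.64 and 3.47, Hoxc11 3.71 and 3.87, and Hoxd11 5.08 and 4.99. Hoxc12 read 3.90 and 4.0, and Hoxd12 3.64 and 3.44. Hoxc13, a gene of hair and nail that is also made in the filiform papillae of the tongue, read 4.39 and 4.40, and 1 of 6 markers of hair and filiform papilla passed the floor, Msx2, which is also a facial homeobox gene. The other group 13 genes, of digits and tail, were Hoxa13 at 3.44 and 3.24, Hoxb13 at 4.49 and 4.45, and Hoxd13 at 3.82 on both. The 16 genes of groups 9 to 13 had medians of 3.92 and 4.02, close to those of groups 5 to 8.

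By their wild-type medians the clusters were further apart than the position groups. The 9 HoxB genes ran from 4.43 to 5.44 in the wild type (median 4.89), the 9 HoxC genes from 3.17 to 4.45 (median 3.71), the 9 HoxD genes from 3.64 to 5.12 (median 4.31), and the 10 HoxA genes from 2.73 to 5.92 (median 3.78). The double-knockout medians were 4.63, 3.67, 4.40 and 3.52 in the same order. HoxB and HoxC readings overlapped only at the edge in the wild type, where Hoxc9 (4.45) exceeded Hoxb4 and Hoxb6. With the floor lowered to the 25th percentile of annotated probe sets (4.24 and 4.20), 18 Hox genes passed on each array, comprising all 9 of HoxB, 1 of HoxA (Hoxa4), and from HoxC 2 (wild type) and 1 (double knockout). From HoxD 6 and 7 passed. That lower floor was passed by 75.9 and 75.8 percent of all genes. Such differences between probe sets are not an order of transcript abundance, since each probe set has its own response, and the readings of the 37 correlated between the arrays with a Pearson r of 0.97 across genes, which share these probe sets.

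The chromosomal neighbours of the clusters were then examined. Of 16 protein-coding genes taken as the nearest 2 on each side of each cluster in RefSeq order, 15 had a probe set and 8 were above the floor on both arrays; Gm50595, beside the D cluster, is not analysed here. That is 53.3 percent, close to the 49.7 and 49.9 percent of all genes. Beside HoxC, Calcoco1 read 9.11 and 8.98, the ATP synthase gene Atp5g2 10.80 and 10.66, and the heterochromatin protein gene Cbx5 9.08 and 8.97, with the repair gene Smug1 at 4.52 and 4.43 between Cbx5 and the cluster.

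Beside HoxA, the metabolic enzyme gene Hibadh read 9.32 and 8.99 and Snx10 6.47 and 6.95. Skap2 read 5.62 and 6.07, and the homeobox gene Evx1 3.87 and 3.75. Evx1 and Evx2, which are also on the list of transcription factors of other tissues, lie beyond Hoxa13 and Hoxd13 and descend from the same ancestral cluster, and both were below the floor. Evx2 read 5.34 and 5.20, with Lnpk beyond it at 6.49 and 6.19, just over the floor in the double knockout. On the other side of HoxD the mitochondrial import gene Mtx2 read 8.28 and 8.24. HoxB had the dimmest neighbours, with Snx11 at 6.71 and 6.66, Skap1 at 3.94 and 3.84, Ttll6 at 3.45 and 3.56, and Calcoco2 at 3.76 and 3.67. At 3 of the 4 clusters at least 1 neighbour stood more than 2 log2 units above the floor.

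**Figure D3:**
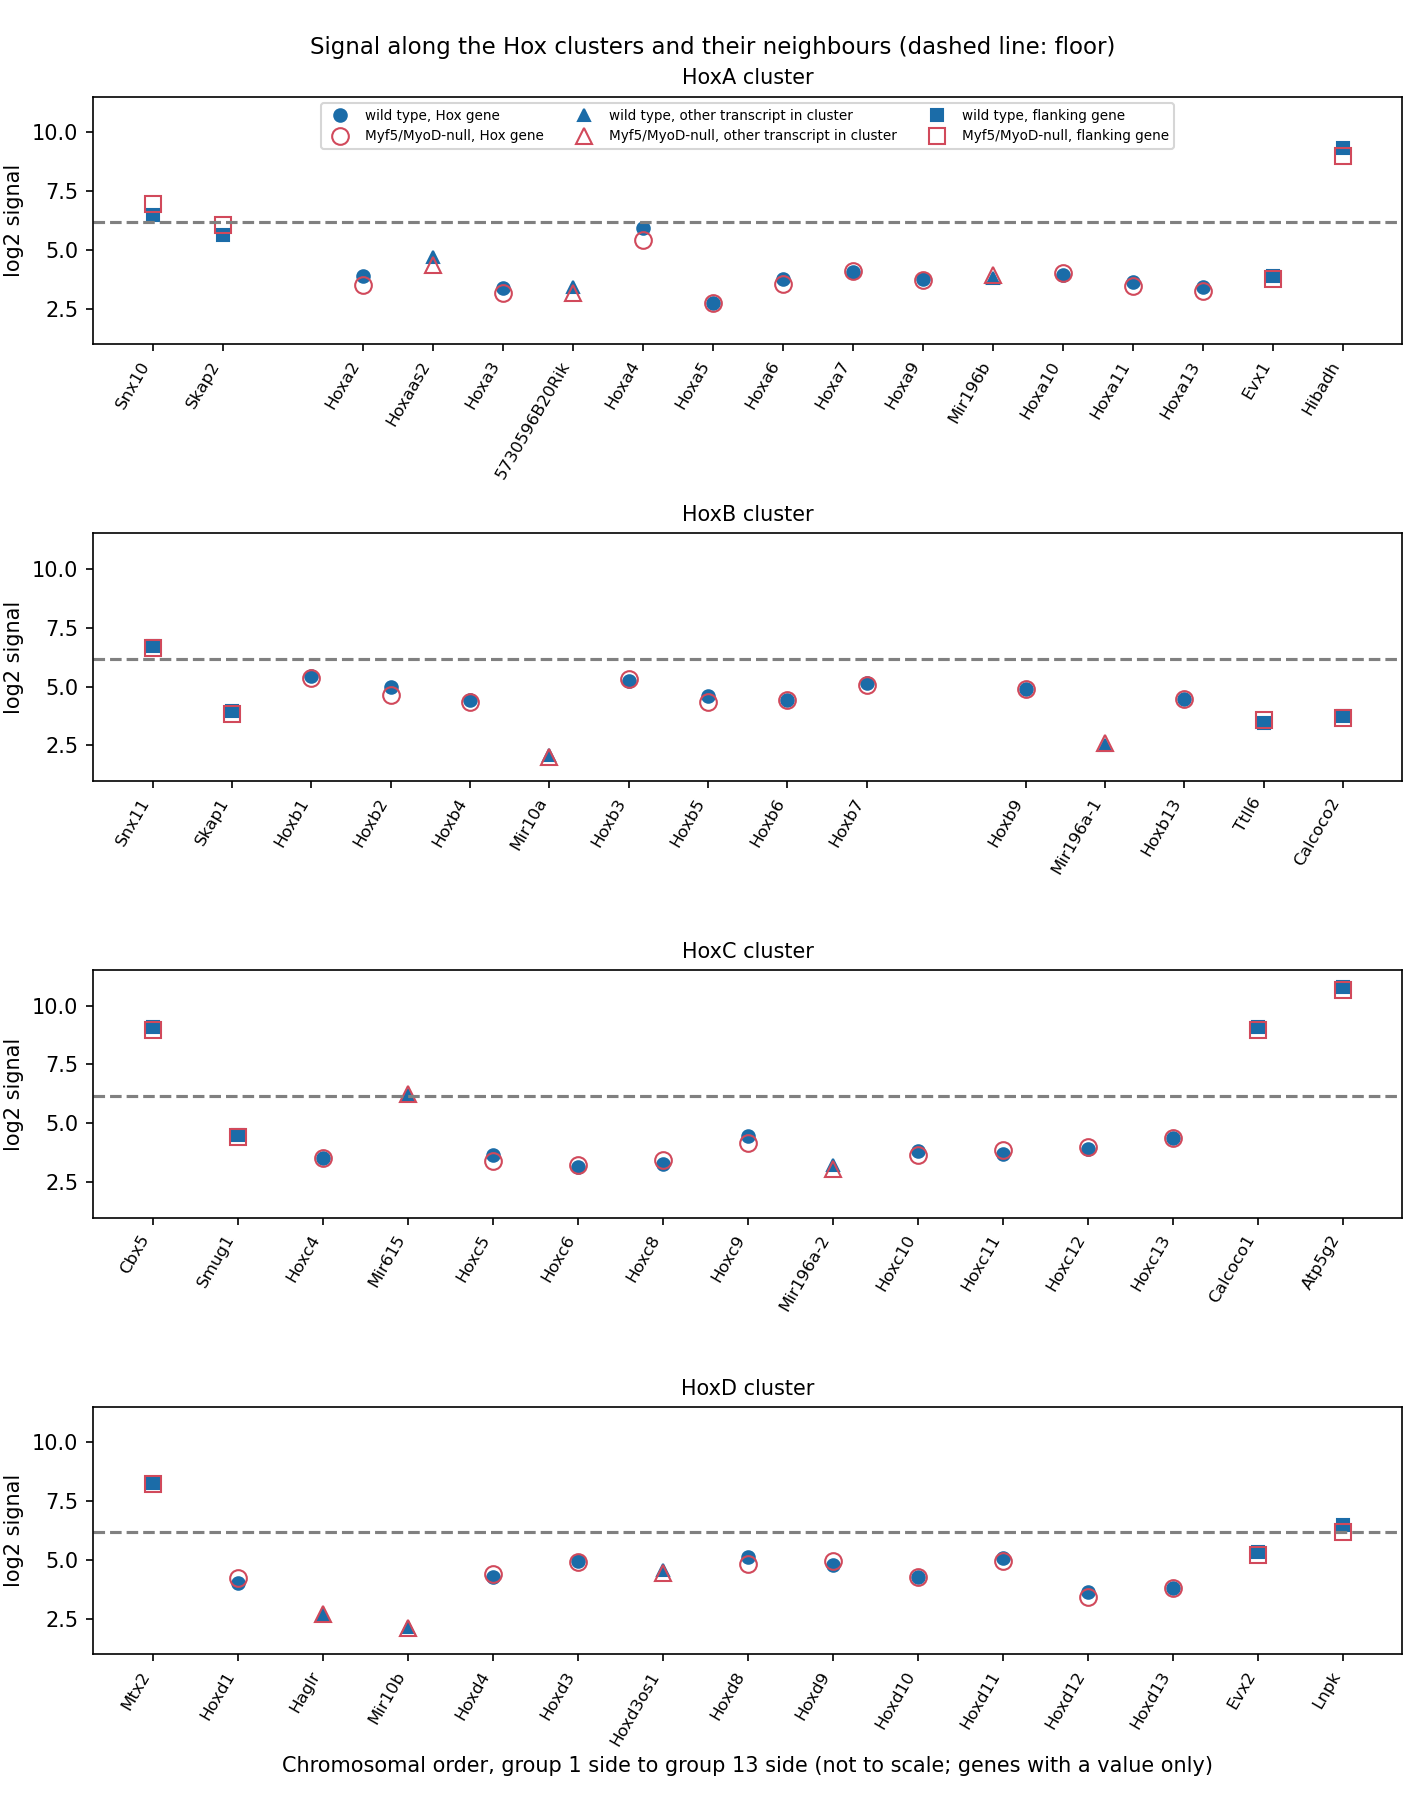
log2 signal (vertical axis) of genes in chromosomal order along each cluster, with filled symbols for the wild-type and open symbols for the Myf5/MyoD-null array; circles are Hox genes, triangles other transcripts in the cluster and squares flanking genes. Every circle lies under the dashed floor, and Hibadh, Cbx5, Calcoco1, Atp5g2 and Mtx2 stand more than 2 log2 units above it.

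The clusters also hold transcripts that are not Hox genes. RefSeq lists 31 between the outermost Hox genes of the 4 clusters, of which 10 had a probe set of their own. All 4 long non-coding RNAs read under the floor. Hoxaas2 read 4.68 and 4.37, Hoxd3os1 4.56 and 4.48, 5730596B20Rik 3.42 and 3.17, and Haglr 2.73 on both. Whether these probe sets separate an antisense RNA from its partner was not tested. Hottip, a non-coding RNA just beyond Hoxa13, read 3.70 and 3.86.

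The other 6 were microRNA genes, which are shown because they are embedded among the Hox genes and several target Hox messages. The probe sets correspond to the hairpin genes, so their readings do not measure the mature microRNA. Mature sequences from RefSeq (GRCm38.p6) follow, with the seed, bases 2 to 8, in capitals.
miR-10a-5p: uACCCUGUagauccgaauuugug
miR-10b-5p: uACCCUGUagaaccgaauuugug
miR-196a-5p: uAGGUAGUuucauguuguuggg
miR-196b-5p: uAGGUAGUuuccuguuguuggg
miR-615-3p: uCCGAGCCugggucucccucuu
The microRNAs of the miR-10 pair share one seed and differ by U12A (position from the 5′ end, miR-10a first), and those of the miR-196 pair share another and differ by A12C (miR-196a first). Coordinates are those of the mature arm printed above, and readings are those of the hairpin gene. Mir10a (HoxB, miR-10a-5p at chr11:96317186-96317208, plus strand) read 2.09 and 1.99, and Mir10b (HoxD, miR-10b-5p at chr2:74726074-74726096, plus strand) 2.16 and 2.12. Mir196a-1 (HoxB, miR-196a-5p at chr11:96265187-96265208, plus strand) read 2.50 and 2.60, Mir196a-2 (HoxC, miR-196a-5p at chr15:102973365-102973386, plus strand) 3.25 and 3.05, and Mir196b (HoxA, miR-196b-5p at chr6:52230129-52230150, minus strand) 3.81 and 3.93. All were below the floor. Mir615, which lies within Hoxc5 (miR-615-3p at chr15:103014969-103014990, plus strand), read 6.20 and 6.23, just over the floor on both arrays, while Hoxc5 itself read 3.67 and 3.40. Among the transcripts within the 4 clusters that had a probe set of their own, Mir615 alone passed the floor. The others were not read.

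The wild-type and double-knockout arrays were next compared for the Hox genes. No Hox gene was measured above the floor, so the count at least 2-fold apart was 0 lower and 0 higher out of 0 measured, beside 2.73 percent lower and 0.51 percent higher of the 10393 measured genes. The comparison was therefore made on the deposited values without a floor, where 0 of 37 were 2-fold apart, beside 0.786 percent of the 9545 genes that were dim (under the floor) throughout. The median difference, double knockout minus wild type, was -0.04, against 0.00 over those 9545 genes. It was -0.09 with the median difference of single-gene probe sets set to 0 and 0.0088 after quantile normalisation, so its sign was not stable. In the double knockout 20 Hox genes read lower, 6 identical and 11 higher, beside 42.1, 8.77 and 49.1 percent of the 9545.

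The split also varied with the scaling. After quantile normalisation 18 Hox genes read lower and 19 higher. With the median difference set to 0, which moves every gene down alike and so makes the 6 identical genes lower by construction, 29 read lower and 8 higher. No share of the dim genes under the same scaling was set beside these 2 splits, so neither is read as particular to the Hox genes. Group 2 kept both members lower under either scaling. All 37 differences lay inside the central 95 percent of single-gene probe sets in the same 1-unit bin of mean signal, a range that 3.81 percent of the 9545 dim genes fell outside. The bin around Hoxa4 is wide (-1.52 to 0.62), and among the dim genes alone the central 95 percent ran from -0.48 to 0.47, so the Hoxa4 difference of -0.49 was just past its lower edge. Probe sets of one gene that were both dim gave differences that varied with an SD of 0.26 over 276 genes.

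By cluster the median differences were -0.18 for HoxA, -0.08 for HoxB, 0.01 for HoxC and 0.00 for HoxD. By position they were -0.08 for groups 1 to 4, -0.05 for groups 5 to 8 and -0.02 for groups 9 to 13. With the median difference set to 0 and after quantile normalisation, HoxC was at -0.04 and 0.06, HoxD at -0.06 and 0.04, and groups 9 to 13 at -0.07 and 0.02, so their signs turned with the scaling. HoxA, HoxB and the other position groups had a negative median under each of the 3. The largest difference upward was 0.19, in Hoxd1. Skeletal muscle markers, whose summed linear signal was 29801 (wild type) and 454 (double knockout), moved between the same arrays, and their part in these small differences was not tested.

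**Figure D4:**
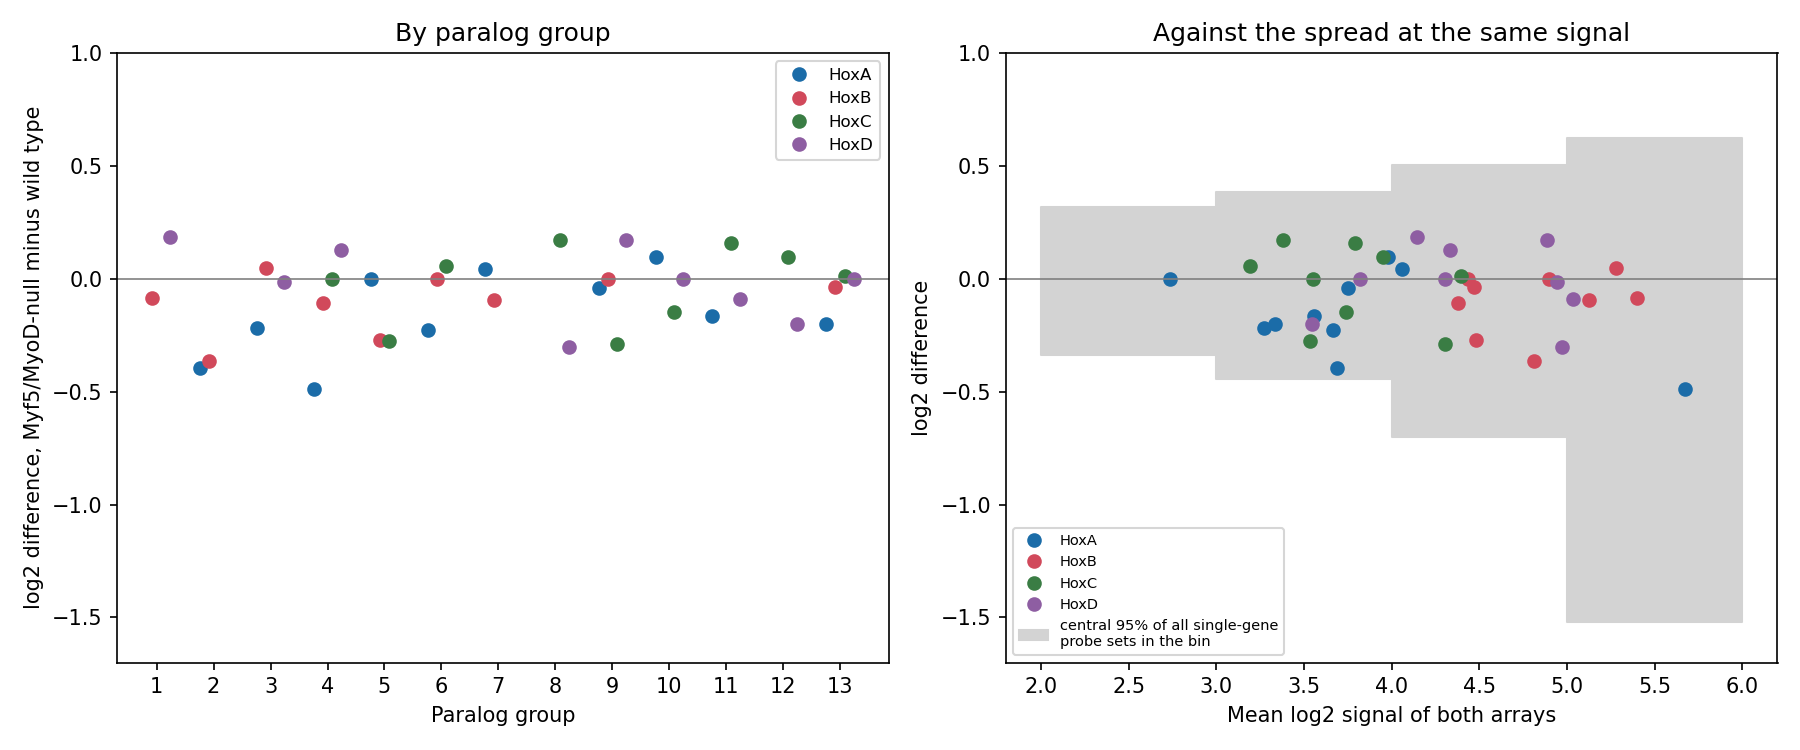
log2 difference (Myf5/MyoD-null minus wild type) of each Hox gene by paralog group (left) and against its mean log2 signal (right); grey boxes hold the central 95 percent of all single-gene probe sets in each bin. All 37 points lie inside the boxes, from -0.49 for Hoxa4 to 0.19 for Hoxd1.

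The listed partners and regulators of Hox proteins were mostly above the floor, where no Hox gene was. Of all genes, 49.7 percent (wild type) and 49.9 percent (double knockout) were above it. The TALE homeodomain proteins (Pbx, Meis and Pknox), which bind DNA together with Hox proteins and also work without them, had 6 of 8 wild-type and 5 of 8 double-knockout readings above the floor. With 8 genes, these counts were not read as different from the share of all genes. Meis2 read 8.32 and 9.15, a difference of 0.83, Pbx3 8.67 and 9.01, and Meis1 7.34 and 7.67. Pknox2 was above the floor in the wild type alone (6.87 against 6.09), at least 1.60-fold lower. The median difference of the 6 measured was 0.25, and none was 2-fold apart. Of all measured genes, 2.73 percent were at least 2-fold lower and 0.51 percent at least 2-fold higher, shares that also stand beside the lists below.

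Polycomb proteins keep Hox clusters silent where they are not used. The floor was passed by 18 of 19 Polycomb genes in wild-type tissue and 17 in the double knockout, beside 49.7 and 49.9 percent of all genes. The histone methyltransferase Ezh2 was the brightest at 9.57 and 9.75. Among the 18 measured, the largest differences were in Suz12 (0.41), its partner Mtf2 (0.27), Phc1 (0.26) and Phc2 (0.21), with a list median of 0.12 and none 2-fold apart. All 7 Trithorax and demethylase genes, which oppose Polycomb, were above the floor on both arrays. Men1 (0.16), Kmt2a (0.14), Kdm6b (0.12) and Ash2l (0.12) differed most, with a median of 0.12. These medians are close to the 0.10 of all measured genes. In the deposited values 14 of the 18 measured Polycomb genes read higher, beside 66.9 percent of all measured genes. Under the other scalings 12 and 15 of the 18 read higher, with no share of all genes set beside them.

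Of 14 genes that act upstream of Hox expression, 11 were above the floor on both arrays, beside 49.7 and 49.9 percent of all genes. The 3 below it were Cdx1, Cdx2 and Cdx4, the caudal factors that activate trunk Hox genes, with wild-type readings of 5.30, 4.27 and 2.47 and double-knockout readings of 5.20, 4.25 and 2.39. Genes of retinoic acid, a signal that induces anterior Hox genes, were above it. The retinoic acid-degrading enzymes Cyp26a1 and Cyp26c1 differed by 0.69 and 0.56, the receptor Rarg by 0.47, and Gdf11, a growth factor of trunk patterning, by 0.49. The list median was 0.32, against 0.10 over all measured genes. Of the 11, 10 read higher in the deposited values, beside 66.9 percent of measured genes, and none was 2-fold apart. Under either other scaling 9 read higher, with no share of all genes set beside them.

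Genes reported downstream of Hoxa2 in the arches were read last. Pitx1, which is also a first-arch gene, read 8.29 and 8.78. Zfp503 read 7.47 and 7.84, Zfp703 7.13 and 7.24, and Six2, which Hoxa2 represses, 7.37 and 7.28. Meox1 was above the floor in the wild type alone (6.42 against 5.94). None of the 5 was 2-fold apart.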

How the data were processed

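RNA from 1 wild-type and 1 double-knockout mandible sample was measured on 1 array each. The deposited table gives a log2 signal for each of 35557 probe sets; that the base is 2 was read from its range. Per the submitters' processing notes MAS5 was used, with no version. MAS5 relies on mismatch probes, whereas the probe set identifiers fit an array type without them. How the values were made is therefore not settled, and what a signal near background means is uncertain. How the authors scaled the arrays, and the genome build, are not stated in the sources used here, which is why 2 other scalings were also computed. Names came from GEO's platform annotation (21789 probe sets with 1 gene, 1621 with several, 12147 without an entry). A gene was represented by its brightest probe set. Values below the floor, each array's median over annotated probe sets, were raised to it for fold changes, and a gene was called measured if above the floor on at least 1 array. Differences are double knockout minus wild type. With 1 array per genotype there is no test and no p-value; the number of arrays limits the precision. Alternatives were those scalings, other floors, the median over probe sets, and other fold thresholds. All members were named, with the neighbours and transcripts of the clusters, and of other lists up to 4 genes with the largest differences; the brightest or defining members named besides (Prrx1, Dlx5, Ezh2, Cdx genes, Isl1, Six2, Zfp703) were chosen after their values were seen. Members and lists were chosen with earlier results of these data known. The calculations were checked on simulated data with changes placed only in genes well above the floor. That check does not cover differences between readings below it, such as those of the Hox genes. Python 3.11.15, numpy 2.4.6 and pandas 2.3.3 were used.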

Additional observations from a re-analysis of the deposited data

How the results depend on the processing

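The count of Hox genes above the floor was 0 on both arrays with either other scaling, with a 75th-percentile floor and with the median over probe sets. These runs could give no other count. Either scaling keeps the order of probe sets on an array, and the floor was again the array's median. A 75th-percentile floor is higher, and each Hox gene has 1 probe set of its own. The count was 18 and 18 (wild type and double knockout) under a 25th-percentile floor, and 16 and 14 under one at the 95th percentile of chemoreceptor probe sets. A floor at the overall probe set median gave 1 wild-type gene, Hoxa4, and 0 double-knockout genes. These lower floors admit more genes by construction. Every count of genes 2-fold apart, or 1.5-fold or 3-fold apart, was 0 in each direction. The other fold thresholds, the scalings and the probe set rule were run at the planned floor, where 0 genes were measured. There, and at the 75th-percentile floor, the count was 0 by construction. The runs with measured genes were the 25th-percentile floor (19), the chemoreceptor floor (17), the overall-median floor (1) and no floor (37). The median difference of measured Hox genes has no value at the planned floor, where 0 were measured, so the value without a floor was reported in its place. It was -0.038 over 19 genes under the 25th-percentile floor, -0.044 over 17 with the chemoreceptor floor, -0.038 over all 37 with no floor, and -0.47 for Hoxa4 alone under the overall-median floor. At the planned floor the scalings and the probe set rule left 0 measured, as did the 75th-percentile floor. Without a floor the median over 37 genes was -0.09 with the median difference set to 0, 0.0088 after quantile normalisation and -0.038 with the median over probe sets, so quantile normalisation turned its sign. The median signal percentile was 30.6 and 32.7 among all probe sets, and 32.7 and 34.7 among the transcription factors of other tissues, a ranking chosen after seeing the data. No paired analysis was possible because each genotype has 1 array, and for the same reason no array could be left out. Signals this close to background limit what can be said of any single Hox gene.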

Other observations

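Identical readings were not particular to the Hox genes. They made up 16.2 percent of the 37, beside 15.7 percent of the chemoreceptor genes and 8.77 percent of genes under the floor throughout. Hoxa5, Hoxb6, Hoxb9, Hoxc4, Hoxd10 and Hoxd13 were deposited with a single value shared by the 2 genotypes, as were 1626 of all 35557 probe sets and 187 of the 1190 chemoreceptor genes. Hoxa5 and the non-coding RNA Haglr carried the same value as each other, 2.73, on both arrays. Such a difference of 0.00 is therefore not a more precise measurement than the other small differences.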
